A study of Mus musculus with 6 samples.

Results

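The genes described here are 40 interferon signalling and interferon-induced genes, chosen by name: the receptor chains, their kinases, transcription factors and inhibitors, and a set of genes that interferons are known to switch on. All probe sets (groups of short probes that report 1 transcript) that the annotation of the Mouse430A_2 array gives to 1 of these genes were taken, which gave 51 of 22626 tested probe sets and 38 of 12393 named genes. Isg15 is listed on 1 probe set only together with a second gene, Gm9706, so that probe set was not given to either, and Ifi44 was not analysed here. Where a gene had several probe sets, the one with the highest mean over the 6 arrays stands for it, and the others are given beside it where they differ.

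Expression was measured on 6 arrays of mouse testis cells, 1 array per sample. All mice carried the transgene CD4HAglo, in which a shortened Stra8 promoter drives a human CD4 surface marker, and no drug or other agent is named. In 3 samples, titled spermatogonial stem cells, CD4-positive cells had been isolated with magnetic beads, with 50 males pooled for each preparation. The other 3 are titled total testicular cells, while their source field names CD4-negative cells, so whether they were depleted of positive cells is not settled by the labels, and the run records carry 1 sample-type text for all 6 arrays. Strain and age are not given in the sources used here. Below, these are called stem cell arrays and total cell arrays, numbered by replicate. The labels do not say that replicates came from separate animals, so p-values measure the spread between these samples, which may be technical.

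Interferons are secreted proteins that warn cells of infection. Type I interferons bind a receptor of the chains IFNAR1 and IFNAR2 and type II interferon one of IFNGR1 and IFNGR2. Kinases of the JAK family attached to these chains then activate STAT proteins, which enter the nucleus, alone or with IRF9, and switch on antiviral and antimicrobial genes through DNA elements called ISRE and GAS. In the testis, interstitial macrophages and somatic cells are known to answer interferon strongly and germ cells weakly.

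Of the 38 measured genes, 4 rose in the stem cell arrays and 0 fell. The 4 are Ifitm2 and Bst2, membrane proteins that hold back enveloped viruses, Ifi47, an immunity-related GTPase, and Ifnar2, a chain of the type I receptor. They make up 10.5% of the measured genes, where 1.63% of all named genes rose and 0.137% fell (limma, adjusted p under 0.05 over all probe sets). At an unadjusted p under 0.05, 25 were higher and 0 lower, against 11.8% higher and 13.1% lower of all genes. In 27 of the 38, all 3 stem cell arrays lay above all 3 total cell arrays, against 13.8% of all genes. In 0 of the 38 did all stem cell arrays lie below, against 19.2% of all genes. In the total cells, 33 of the 38 averaged no more than 2 log2 units above background (2.15), where a fall could be missed. Of all 12393 named genes, 6680 did. The median log2 difference (stem cells minus total testicular cells, as throughout) was 0.66 for the 38 and −0.05 for all genes. Differences ran from −0.30 to 3.04, and 33 were positive and 5 negative, against 43.0% and 57.0% of all genes; after each of 3 ways of rescaling the arrays 30 or 31 were positive. Counted per probe set, 5 of 51 rose (1.40% of all probe sets did) and 0 fell, the second probe set of Ifnar2 being the fifth. Of the 51, 45 were positive, where 45.0% of all probe sets were positive and 55% negative.

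The number past the threshold depends on single arrays. Without any 1 of the 3 total cell arrays, 0 members passed by limma, as the count over all genes dropped from 202 higher to between 28 and 48. It was 8 without stem cell replicate 1, 7 without replicate 2 and 16 without replicate 3, and the same 4 genes were among them each time. Of all genes, 2.61%, 3.33% and 6.37% were then called higher, so the share rose for all genes as well.

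**Figure D1:**
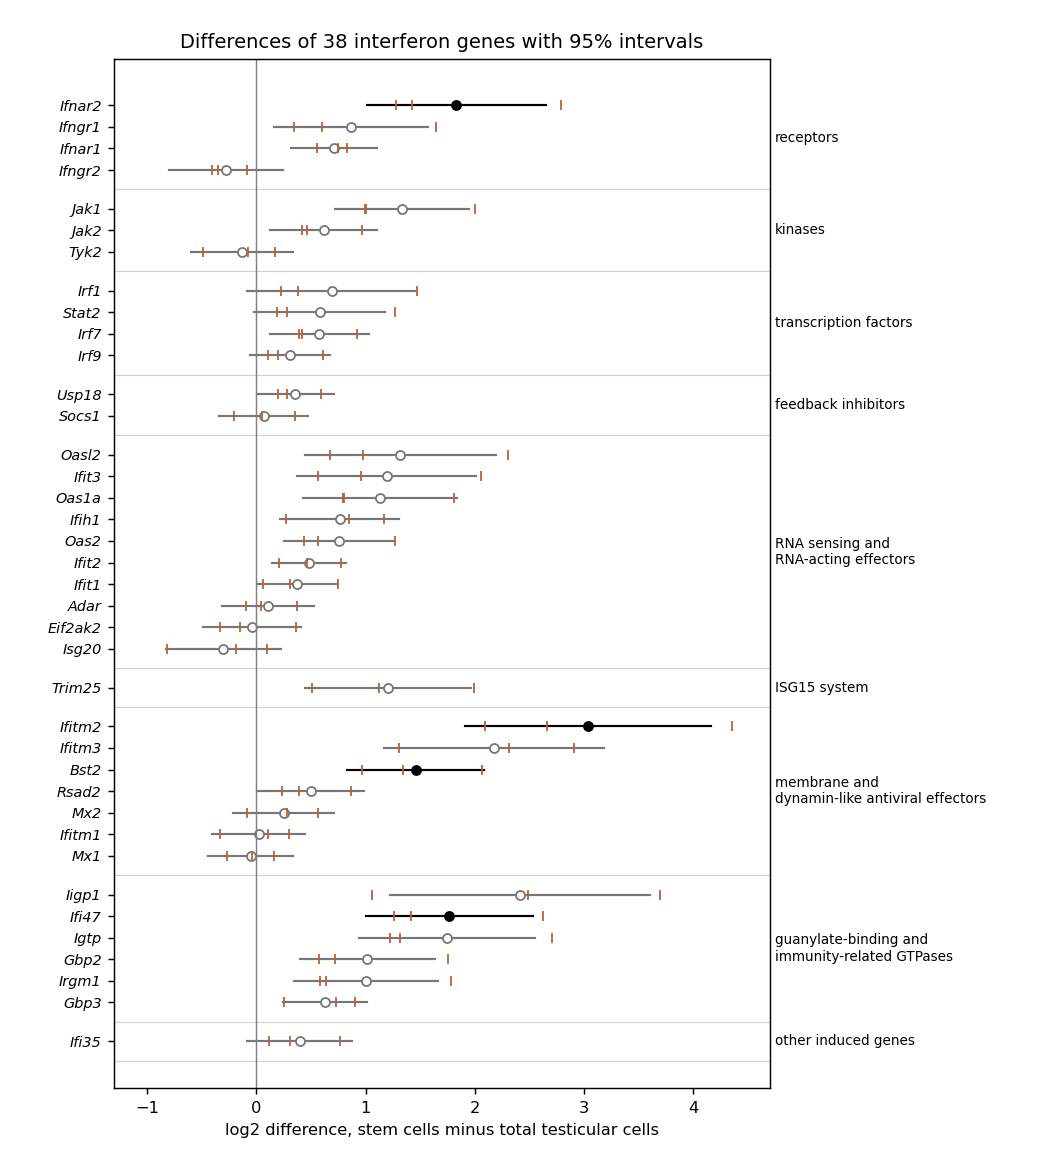
Log2 difference of each of the 38 measured genes, grouped by role (x axis: stem cells minus total testicular cells, log2). Circles are group differences with 95% intervals from limma, filled for the 4 genes past the adjusted threshold, and orange ticks are the 3 stem cell arrays against the mean of the total cell arrays; most ticks lie right of 0, and all 6 GTPase genes do on every array.

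The promoters of the 4 genes that rose are given here, with those of Ifitm3 and Igtp, which came just short of the threshold, and of Ifitm1, the neighbour of Ifitm2 and Ifitm3 that did not differ detectably. Each is the RefSeq window of 250 bases before to 50 after the gene start (build GRCm38.p6), written 5′ to 3′ on the gene's strand. Capitals mark matches on either strand to GAAA, any 2 bases and GAAA (the core of the interferon-stimulated response element, ISRE), to TTCNNNGAA (the gamma-activated sequence, GAS), to GGAA, any 2 bases and GAAA (a composite of the core letters of ETS and IRF factors), and to GAGGAAGT (a PU.1 box, PU.1 being the factor named in the series title), and neighbouring matches can overlap. The windows lie at chr7:140955912-140956211 (minus strand) for Ifitm2, chr7:141010695-141010994 (minus) for Ifitm3, chr7:140967826-140968125 (plus) for Ifitm1, chr8:71537423-71537722 (minus) for Bst2, chr11:49076337-49076636 (plus) for Ifi47, chr11:58199306-58199605 (plus) for Igtp and chr16:91372533-91372832 (plus) for Ifnar2.
Ifitm2: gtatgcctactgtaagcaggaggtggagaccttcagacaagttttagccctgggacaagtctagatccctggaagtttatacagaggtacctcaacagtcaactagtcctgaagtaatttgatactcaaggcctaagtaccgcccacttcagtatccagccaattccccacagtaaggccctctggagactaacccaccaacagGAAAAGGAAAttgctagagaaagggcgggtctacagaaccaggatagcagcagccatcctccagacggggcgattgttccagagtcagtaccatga
Ifitm3: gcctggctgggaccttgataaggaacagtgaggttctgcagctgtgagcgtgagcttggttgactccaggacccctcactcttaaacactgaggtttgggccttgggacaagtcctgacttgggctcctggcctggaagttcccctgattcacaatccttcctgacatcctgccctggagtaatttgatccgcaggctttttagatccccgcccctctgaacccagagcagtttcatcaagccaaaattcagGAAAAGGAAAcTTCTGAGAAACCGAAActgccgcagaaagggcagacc
Ifitm1: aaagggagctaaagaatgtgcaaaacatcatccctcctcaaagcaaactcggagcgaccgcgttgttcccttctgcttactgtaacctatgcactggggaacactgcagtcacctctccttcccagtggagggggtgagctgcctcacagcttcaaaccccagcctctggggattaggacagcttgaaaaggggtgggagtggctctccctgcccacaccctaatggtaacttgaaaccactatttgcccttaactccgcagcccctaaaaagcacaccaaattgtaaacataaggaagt
Bst2: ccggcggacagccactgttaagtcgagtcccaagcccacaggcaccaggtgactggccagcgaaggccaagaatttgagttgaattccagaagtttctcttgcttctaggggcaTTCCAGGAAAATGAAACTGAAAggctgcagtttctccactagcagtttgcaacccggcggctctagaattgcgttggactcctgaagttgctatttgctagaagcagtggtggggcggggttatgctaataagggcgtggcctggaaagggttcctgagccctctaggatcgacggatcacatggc
Ifi47: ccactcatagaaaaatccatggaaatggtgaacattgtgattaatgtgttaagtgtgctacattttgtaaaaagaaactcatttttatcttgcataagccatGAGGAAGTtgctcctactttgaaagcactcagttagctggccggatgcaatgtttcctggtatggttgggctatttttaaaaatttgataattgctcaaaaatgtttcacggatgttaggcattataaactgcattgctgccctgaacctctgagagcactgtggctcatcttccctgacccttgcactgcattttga
Igtp: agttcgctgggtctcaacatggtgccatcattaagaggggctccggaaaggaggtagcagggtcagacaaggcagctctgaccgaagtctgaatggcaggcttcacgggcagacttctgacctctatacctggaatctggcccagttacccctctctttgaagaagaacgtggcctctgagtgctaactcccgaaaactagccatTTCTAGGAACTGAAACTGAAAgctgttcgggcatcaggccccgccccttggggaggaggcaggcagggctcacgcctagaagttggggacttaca
Ifnar2: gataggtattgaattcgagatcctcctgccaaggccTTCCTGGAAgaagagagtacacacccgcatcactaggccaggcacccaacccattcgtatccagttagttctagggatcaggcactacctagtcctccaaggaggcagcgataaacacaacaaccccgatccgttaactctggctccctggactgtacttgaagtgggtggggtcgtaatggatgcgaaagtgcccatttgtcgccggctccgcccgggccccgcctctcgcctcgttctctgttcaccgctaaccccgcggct

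The Ifitm2 window holds 1 ISRE match, at −46 to −37 from the start, and the Ifitm3 window holds 2, at 3 to 12 and 20 to 29, the second overlapping a GAS match. None of the 4 motifs was found in the Ifitm1 window. In Bst2 a GAS match at −136 to −128 runs into 2 overlapping ISRE matches ending at −115. Igtp has a GAS, a composite and an ISRE match overlapping between −45 and −25. The Ifnar2 window holds 1 GAS match and the Ifi47 window 1 PU.1 box. Over the 35 genes of the set with a window in the table, 16 (45.7%) had an ISRE match, against 3.99% of all 27025 genes, and 12 (34.3%) a GAS match, against 9.55%. The composite was matched in 5 (14.3%, against 3.16%) and the PU.1 box in 2 (5.71%, against 3.69%), Adar and Ifi47. Of the genes also measured, the 15 with an ISRE match had a median log2 difference of 1.00, with 13 showing no overlap between groups. The 18 without one had a median of 0.60, with 11 showing none. For GAS the medians were 0.70 with a match and 0.63 without, and the groups were apart in 7 of 12 genes with one and 17 of 21 without. Of all named genes, 13.8% had all stem cell arrays above all total cell arrays. These are descriptions: the genes are known interferon targets for the most part, a letter match is no proven binding site, and the differences between genes with and without a match were not tested.

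**Figure D2:**
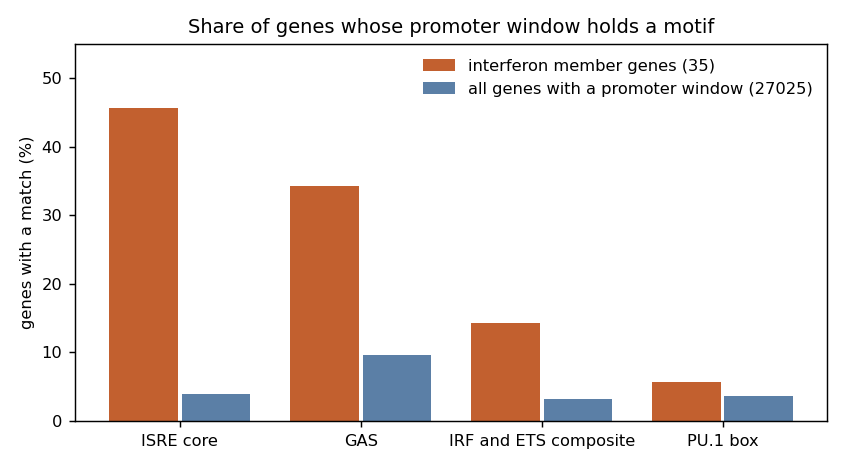
Share of genes (y axis, percent) whose promoter window holds at least 1 match to each motif, for the 35 interferon genes with a window and for all 27025 genes with one. The ISRE core is matched in 45.7% against 3.99% and the PU.1 box in 5.71% against 3.69%.

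The receptor chains gave estimates of different size, and no test between chains was made. Ifnar2, the high-affinity chain of the type I receptor, had log2 values of 5.80, 4.43 and 4.28 on stem cell arrays 1, 2 and 3 and 3.08, 3.15 and 2.78 on total cell arrays 1, 2 and 3. The groups did not overlap, and array 1 stood more than a log2 unit above the other stem cell arrays. That is a difference of 1.83 ± 0.36 (SE, limma adjusted p = 0.0472, 3 arrays in each group), or 3.56-fold, and of 0.70 on the second probe set (adjusted p = 0.0479). Ifnar1, the other type I chain, read 4.41, 4.14 and 4.33 in stem cells against 3.57, 3.72 and 3.45 in total cells. Its groups were also apart, and its stem cell arrays lay close together. Its difference of 0.71 ± 0.18, close to that of the second Ifnar2 probe set, did not pass (adjusted p = 0.0764).

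Ifngr1, the ligand-binding chain of the type II receptor, read 5.83, 4.53 and 4.78 in stem cells against 4.27, 4.29 and 3.97 (difference 0.87, adjusted p = 0.15). The groups did not overlap, with array 1 far above and stem cell array 2 close to the highest total cell array. Ifngr2, the signalling chain of the same receptor, gave opposite signs on its 2 probe sets: −0.28 on the brighter one (5.14, 5.19 and 5.46 against 5.50, 5.15 and 5.98, adjusted p = 0.494) and 0.70 on the other (adjusted p = 0.144). The 2 probe sets do not settle its direction. Ifnar2, Il10rb, Ifnar1 and Ifngr2 follow each other as neighbouring protein-coding genes on chromosome 16. Il10rb, a chain shared by the receptors of interleukin 10 and the type III interferons and not one of the 40 genes, rose by 2.52 ± 0.39 (SE, adjusted p = 0.0225), from 2.83, 3.47 and 3.39 to 6.74, 5.32 and 5.20.

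Of the 3 receptor kinases, Jak1, which serves both receptor types, lay just outside the threshold. It read 6.49, 5.48 and 5.47 in stem cells against 4.50, 4.41 and 4.54 in total cells, a spread of 0.07 (SD, n = 3) in the second group. The difference was 1.33 ± 0.27 (SE, adjusted p = 0.0504), and its dimmer probe sets gave 0.71 and 0.14. Jak2, the kinase on the type II signalling chain, read 3.54, 3.03 and 2.99 against 2.49, 2.93 and 2.30, without overlap but with array 2 of the total cells close to the stem cell values (0.62, adjusted p = 0.142, and 0.49 on its second probe set). Tyk2, the kinase on IFNAR1, overlapped (4.22, 3.97 and 3.55 against 4.03, 3.97 and 4.13), with a difference of −0.13 and a 95% interval of −0.60 to 0.34.

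The transcription factors of the pathway showed small differences, and 0 of 4 passed by limma. At an unadjusted p under 0.05, 1 of 4 was higher, Irf7, against 11.8% of all genes. Stat2, which pairs with IRF9 to carry the type I signal, read 2.76, 2.67 and 3.75 in stem cells and 2.47, 2.61 and 2.36 in the others (0.58, adjusted p = 0.227). It differs from most of the set in that replicate 3 and not replicate 1 was highest, and its second probe set gave 0.02. Irf9 itself read 3.11, 2.69 and 2.60 against 2.54, 2.48 and 2.47 (0.31, adjusted p = 0.284). Irf7, the amplifier of type I interferon genes, differed by 0.58 (3.81, 3.31 and 3.28 against 2.66, 3.10 and 2.90, adjusted p = 0.141). Irf1, the main factor of the type II response, overlapped between groups: 5.83 on stem cell array 1, but 4.74 and 4.58 on arrays 2 and 3, within reach of 4.59, 4.61 and 3.87. All 4 differences were positive (against 43.0% of all genes), and 3 of the genes had groups apart (against 13.8%).

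The 2 feedback inhibitors also stayed below the threshold. Usp18, a protease that strips ISG15 from proteins and blocks IFNAR2, read 2.71, 2.40 and 2.31 against 2.26, 1.86 and 2.23 (0.36, adjusted p = 0.210), all near background. Background here is a log2 value of 2.15, below which 95% of the bacterial control probe sets lie. Socs1, which inhibits JAK kinases, read 2.80, 3.06 and 3.37 against 3.08, 3.02 and 2.94 (0.07, 95% interval −0.34 to 0.47), and its sign turned under all 3 rescalings.

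The Ifitm genes, small membrane proteins that stop viruses from entering cells and mark early germ cells in the embryo, gave both the largest difference of the set and one of the smallest. Ifitm2 read 8.15, 6.45 and 5.88 on stem cell arrays 1 to 3 against 3.88, 4.15 and 3.34 for total cells. All stem cell values lay more than a log2 unit above all others. The difference was 3.04 ± 0.50 (SE, limma adjusted p = 0.0302), an 8.20-fold increase, with a 95% interval of 1.91 to 4.16. Ifitm3 read 6.94, 6.35 and 5.34 against 3.61, 4.89 and 3.58, so total cell replicate 2 stood more than a log2 unit above the rest of its group and close to the lowest stem cell array, without overlap. Its difference of 2.18 ± 0.45 missed the threshold (adjusted p = 0.0508). Ifitm1, which lies between the other two on chromosome 7, read 2.97, 2.53 and 3.16 against 2.95, 2.92 and 2.74. The groups overlapped, and its difference of 0.02, negative under all 3 rescalings, had a 95% interval of −0.40 to 0.45, below the intervals of both neighbours.

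Bst2, or tetherin, which ties budding viruses to the cell surface, read 5.28, 4.56 and 4.19 in stem cells against 3.26, 3.42 and 2.97 in total cells. The groups were apart, and the difference was 1.46 ± 0.28 (SE, adjusted p = 0.0433), or 2.75-fold. Rsad2, or viperin, differed by 0.50 (adjusted p = 0.206), its probe sets ranging from 0.03 to 0.51. The dynamin-like GTPases Mx1 (−0.05, 95% interval −0.44 to 0.34) and Mx2 (0.25, −0.21 to 0.71) overlapped between groups. In this class of 7, 2 rose (28.6%, against 1.63% of all genes) and 4 had groups apart (57.1%, against 13.8%).

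**Figure D3:**
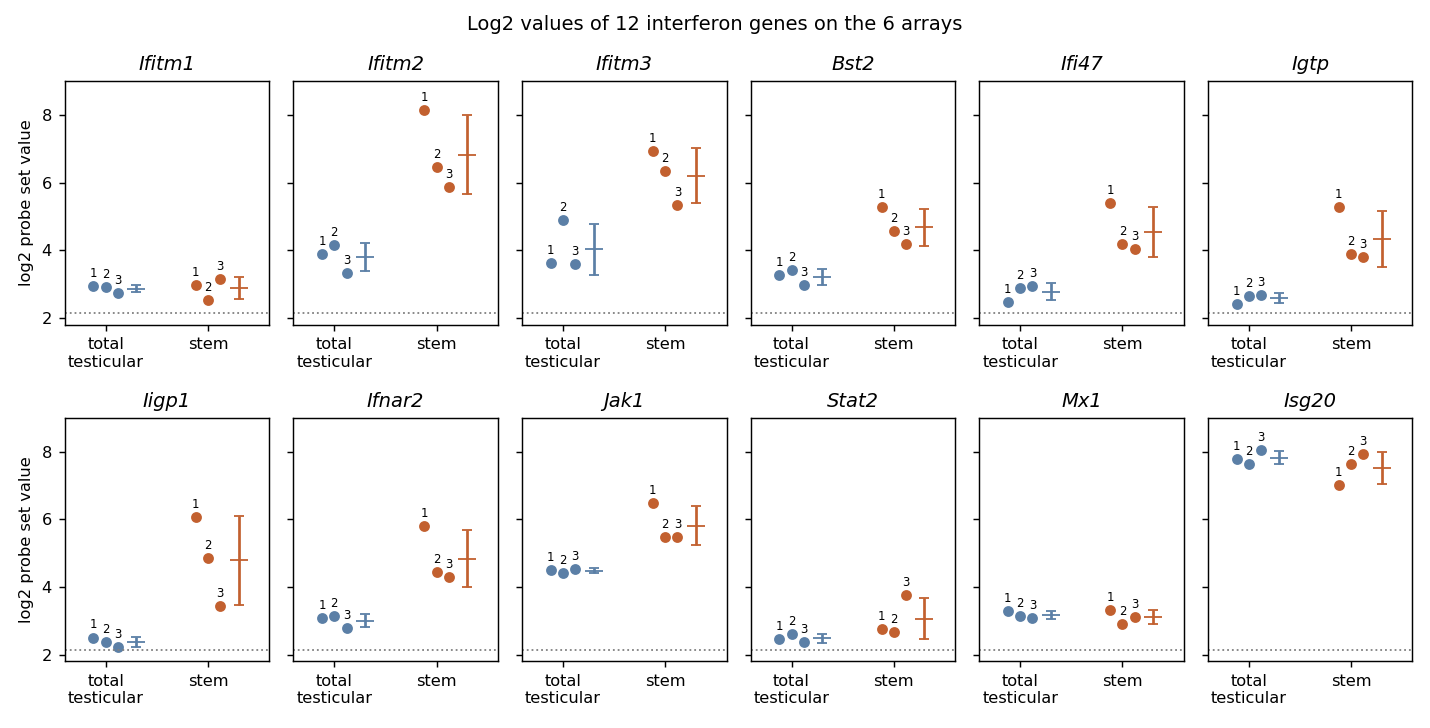
Log2 probe set values (y axis) of 12 of the interferon genes on each array, numbered by replicate, with the mean and SD of each group of 3 beside the points and the background of 2.15 as a dotted line. Ifitm2 lies at 5.88 to 8.15 on the stem cell arrays and 3.34 to 4.15 on the others, whereas Ifitm1, Mx1 and Isg20 overlap.

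The GTPases that attack the vacuoles of intracellular microbes had groups apart for all 6 measured genes, against 13.8% of all genes. Of these 6, 1 rose (16.7%, against 1.63% of all genes). Among the classes with more than 1 measured gene no other had all its groups apart. Ifi47 read 5.39, 4.18 and 4.03 against 2.48, 2.88 and 2.95 (1.77 ± 0.34 SE, adjusted p = 0.0433, 3.40-fold). Igtp, or Irgm3, read 5.28, 3.89 and 3.80 against 2.41, 2.66 and 2.68, almost the same size (1.75 ± 0.36, adjusted p = 0.0504). Iigp1 read 6.07, 4.85 and 3.43 against 2.51, 2.37 and 2.23. Its stem cell arrays spread more than those of any other member (SD 1.32), and its difference of 2.42 ± 0.53, second largest of the set, did not pass (adjusted p = 0.0591). Its other probe set, not above background on any total cell array, differed by 1.57 (adjusted p = 0.0931). Irgm1, a regulator of the other members of its family, read 3.93, 2.79 and 2.73 against 2.24, 2.24 and 1.96 (1.00, adjusted p = 0.102).

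The guanylate-binding proteins Gbp2 and Gbp3 were not above background on any total cell array. Gbp2 read 3.73, 2.70 and 2.55 in stem cells, at least 1.801-fold above that background (difference 1.02, adjusted p = 0.0888), and its second probe set differed by 0.91 (adjusted p = 0.110). Gbp3 read 2.74, 2.56 and 2.09, with a mean 1.25-fold above it (adjusted p = 0.0889) and only 2 of 3 stem cell arrays above background. The class median of 1.38 was the highest of the classes with more than 1 measured gene.

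Among the 10 genes that sense or act on RNA, 0 passed by limma. At an unadjusted p under 0.05, 7 were higher (against 11.8% of all genes), and 7 had groups apart (70%, against 13.8%). Oasl2, of the oligoadenylate synthetase family, read 4.40, 3.07 and 2.77 against 1.62, 2.23 and 2.43 (1.32, adjusted p = 0.104). Oas1a read 5.30, 4.29 and 4.30 against 3.93, 3.42 and 3.14 (1.13, adjusted p = 0.0932), and Oas2 differed by 0.76 (adjusted p = 0.104). Ifit3, a binder of foreign RNA, read 4.90, 3.81 and 3.41 against 2.63, 3.29 and 2.61 (1.19, adjusted p = 0.109), without overlap, though stem cell array 3 and total cell array 2 were close. Ifit1 and Ifit2 were not above background on any total cell array, and on the stem cell arrays they were on 1 and on 2 of 3. Their stem cell means, which include the arrays below background, lay only 1.03-fold and 1.17-fold above background. Ifih1, the sensor MDA5, differed by 0.76 (3.95, 3.62 and 3.05 against 3.02, 2.69 and 2.62, adjusted p = 0.118).

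The remaining 3 of this class overlapped between groups. Eif2ak2, the kinase PKR that halts translation on double-stranded RNA, differed by −0.04 on both probe sets. Adar, which edits adenosine in such RNA, differed by 0.11, with a sign that turned under 2 of 3 rescalings. Isg20, an RNA exonuclease, had values of 7.003, 7.63 and 7.92 in stem cells and 7.78, 7.64 and 8.03 in the others, with stem cell array 1 the lowest of all 6. Its difference of −0.30 (95% interval −0.83 to 0.22) was the lowest of the set. Trim25, a ubiquitin and ISG15 ligase, read 4.97, 4.10 and 3.48 against 2.73, 2.97 and 3.23 (1.205, adjusted p = 0.0952), and its other probe sets gave 0.95 and 0.18. Ifi35 overlapped and differed by 0.40.

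From a wider list of 100 further interferon pathway genes, 73 were measured, and 5 of these rose (6.85%, against 1.63% of all genes) and 0 fell. Besides Il10rb they are Ifi27l2a, a mitochondrial interferon-induced protein (3.23 ± 0.58 SE, adjusted p = 0.0394), Rtp4, a receptor chaperone (2.43, adjusted p = 0.0335), Shisa5, an endoplasmic reticulum protein (2.34, adjusted p = 0.0391), and Lgals3bp, a secreted galectin ligand (1.97, adjusted p = 0.0472). The second probe set of Rtp4 differed by only 0.12 (adjusted p = 0.490) and that of Shisa5 by 1.86 without passing (adjusted p = 0.0844). Ifi27l2a read 8.42, 7.47 and 6.001 against 3.39, 4.99 and 3.81. In 25 of the 73 (34.2%, against 13.8%) the stem cell arrays lay above all others, and in 5 (against 19.2%) below. The list's median difference was 0.19, and 57 differences were positive and 16 negative, against 43% and 57% of all genes. Of the genes that did not pass, Lgals9 had the largest difference (2.21, limma adjusted p = 0.0576). Stat6 did not pass on the probe set that stands for it (0.41, adjusted p = 0.185), but its dimmer one did (1.23, adjusted p = 0.0405). Members that read lower without passing include Dhx58, a regulator of RNA sensing (−0.65, adjusted p = 0.15, its other probe sets at −1.12 and 0.28), and Irf3, the factor downstream of RNA and DNA sensors (−0.58, adjusted p = 0.168; 5.76, 6.65 and 6.31 against 6.84, 6.80 and 6.81), whose other 3 probe sets gave −0.41 to −0.96.

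Transcripts of the interferons themselves were near background in both groups. For 8 measured ligand genes of the wider list, 6 type I alpha genes, Ifnb1 and Ifng, differences ran from −0.10 to 0.17, 0 passed, and all 8 overlapped. Ifnb1 read 2.60, 2.23 and 2.16 in stem cells and 1.88, 2.25 and 2.40 in the others, and Ifng 1.93, 2.17 and 2.16 against 1.97, 1.97 and 2.02, the background being 2.15. At these values a fall in ligand transcripts could not be seen.

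The size of the differences followed the array. Taken against the averaged total cell arrays, the median of the 38 genes was 0.94 on stem cell array 1, 0.45 on array 2 and 0.46 on array 3. Array 1 held the highest of the 6 values for 31 of the 38 genes, against 23.3% of all genes. Arrays were washed in 3 fluidics rounds, of which rounds 1 and 3 held both groups. Within round 1 (stem cell array 1 against total cell arrays 1 and 3) the median was 1.08, and within round 3 (array 2 of each group) 0.45. Ifitm2 differed by 4.53 and 2.30 within these rounds, Ifi47 by 2.68 and 1.31 and Ifnar2 by 2.86 and 1.28. With the round as a block, 16 members (42.1%) passed, and 5.80% of all genes were called higher. Stem cell array 1 also averaged 8.96 on the hybridization control probe sets, against 8.37 to 8.51 on the other 5 arrays. Between 79.7% and 84.1% of all probe sets lay above background on each array. Of the 51 member probe sets 42 or 43 did on each total cell array, against 50, 48 and 46 for stem cell arrays 1, 2 and 3. On average over the total cell arrays, 33 of the 38 genes were no more than 2 log2 units above background, where a fall could be missed. The same held for 6680 of all 12393 named genes.

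Most markers of macrophages were also higher on the stem cell arrays, and their part in these results was not tested. Of 26 measured macrophage and monocyte markers 16 rose (61.5%, against 1.63% of all genes) and 0 fell. The other 10 did not pass, and 2 differences were negative. The mean log2 value of the list was 6.18 to 7.63 on the stem cell arrays and 3.83 to 4.20 on the others. Its median difference was 4.32, 2.66 and 2.50 on stem cell arrays 1, 2 and 3, also highest on array 1. Csf1r, the macrophage growth factor receptor, had the largest difference of the list. It read 11.13, 9.59 and 9.22 against 5.17, 5.76 and 4.73. Of the list only Cd163 was below background on all total cell arrays and none on all stem cell arrays. Of 6 Leydig cell markers, 0 passed by limma and 6 were higher at an unadjusted p under 0.05, against 11.8% of all genes. Their medians were 2.82, 1.70 and 0.56 on arrays 1, 2 and 3, again highest on array 1. The mean list level was 6.06 to 7.997 on the stem cell arrays and 4.90 to 5.79 on the others. Lymphocyte markers had a median of 0.03 over 14 genes (1 rose, or 7.14%, and 0 fell) and endothelial markers 0.01 over 11. Peritubular myoid markers had −0.02 over 6 and Sertoli cell markers 0.19 over 8 (1 rose, or 12.5%). Of all genes, 1.63% rose and 0.137% fell. Of 12 measured markers of undifferentiated spermatogonia, the cells the sort was aimed at, 0 passed by limma, and the median was −0.08. At an unadjusted p under 0.05, 1 was higher and 1 lower, against 11.8% and 13.1% of all genes. The higher one was Itga6, a laminin receptor chain used to enrich these cells (0.99, adjusted p = 0.0739, groups apart), and the lower one Zbtb16, a factor that maintains them (−0.43, adjusted p = 0.178). Stra8, whose shortened promoter drives the sorted marker, read 5.61, 4.796 and 5.77 against 4.42, 4.54 and 4.20, without overlap (1.01, adjusted p = 0.0832). Markers of haploid germ cells had a median of −0.14 over 7 genes. Many markers averaged no more than 2 log2 units above background in the total cells. These were 13 of 14 lymphocyte, 10 of 11 endothelial, 5 of 6 peritubular myoid, 6 of 8 Sertoli and 11 of 12 spermatogonial markers. Of the macrophage markers 17 of 26 did, of the Leydig markers 1 of 6 and of the haploid markers 0 of 7. A median near 0 over such dim probe sets does not show that the cells were equally frequent in both groups. In RNA from mixed cells, a larger share of cells of 1 type and more RNA per cell cannot be told apart.

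**Figure D4:**
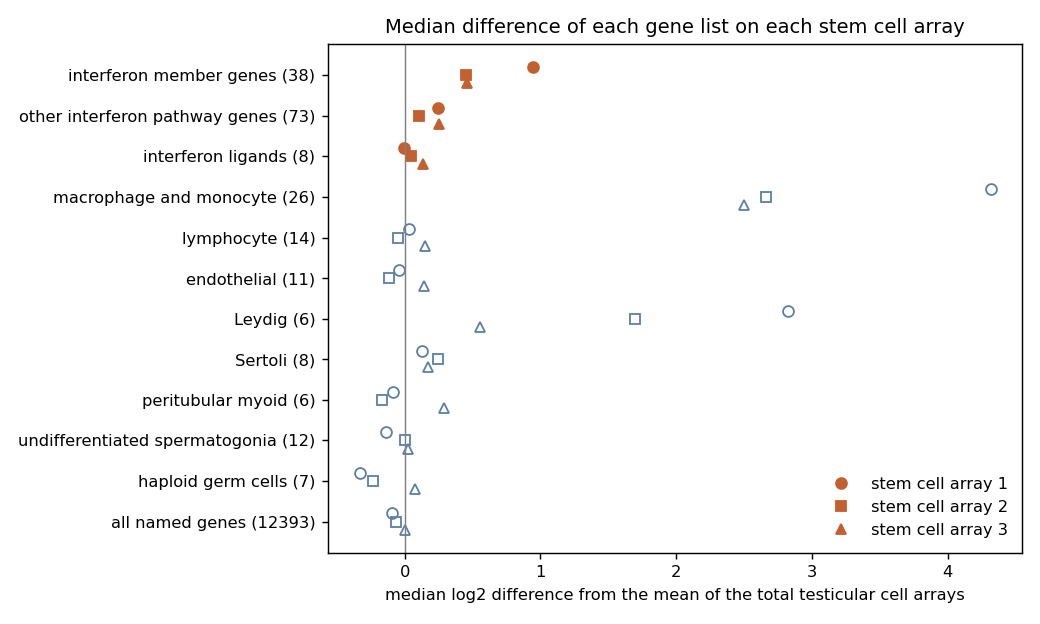
Median log2 difference of each gene list against the averaged total cell arrays (x axis), for each stem cell array, with the number of measured genes in parentheses; filled symbols are interferon lists and open ones marker lists and all genes. The interferon members lie at 0.94, 0.45 and 0.46, the ligands near 0, and the macrophage markers at 4.32, 2.66 and 2.50.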

How the data were processed

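The deposited values are the authors' processed probe set summaries on a log2 scale, as their range shows. MAS5 and RMA are both listed in the submitters' processing notes, without a role, so the background correction and normalization are not given in the sources used here. The run records list station, module and start of each wash, and starts less than 15 minutes apart were counted as 1 round. Members and lists were chosen with earlier results of these data known.

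Groups and replicate numbers come from the titles. The log2 values were used as deposited, with 64 control probe sets left out and no filter. The comparison of stem cell with total cell arrays was run over all 22626 probe sets with limma 3.58.1 in R 4.3.3 (lmFit, eBayes with an intensity trend, 4 residual degrees of freedom, two-sided, Benjamini-Hochberg over all probe sets, threshold 0.05). Fold values are derived from log2 differences. Where a gene was not above background on any array of a group, the mean of the other group was set against background. That gives a lower bound of the fold only where all arrays of the other group were above background. Background was the 95th percentile of the means of 27 bacterial control probe sets, which takes the place of depth, and precision is limited by 3 arrays per group. All 38 measured members could be named whatever their result; of the wider list those past the threshold and the ligands as a group were named by rule, as was the marker Csf1r. Dhx58, Irf3, Lgals9, Stat6, Ifnb1, Ifng, Cd163 and Itga6 were chosen after their values were seen. Symbols were updated through gene identifiers in the RefSeq table of GRCm38.p6 (20351 of 20380 found, 0 changed). Promoter windows were found for 35 of 40 genes. Alternatives were other normalizations, a filter on dim probe sets, other variance models, blocks for replicate number, fluidics round and module, leaving out each array, a stricter threshold and other ways to represent a gene. The procedure was run on simulated data with noise of the same spread in both groups. The stem cell arrays correlated less with each other (0.970 to 0.984) than the total cell arrays did (0.992 to 0.995). The simulation does not cover such unequal spread. Of the same-numbered arrays only those of replicate 3 deviated together (correlations of −0.01, 0.01 and 0.30). Arrays with unlike numbers, total cell replicate 2 and stem cell replicate 1, also reached 0.30. Replicate numbers were therefore not taken as pairs.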

Additional observations from a re-analysis of the deposited data

How the results depend on the processing

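The median log2 difference of the members was positive under all 21 alternatives (0.45 to 1.08), and moved by more than the spread between arrays only within fluidics round 1 (1.08). The count of members past the threshold, 4 with all arrays and the deposited scale, did not hold. It was 1 with quantile normalization, 8 with median centring, 14 with centring on hybridization controls, 7 with a filter on dim probe sets (35 members tested), 0 without the intensity trend, 10 with array weights, 16 with the fluidics round as a block, 0 with the fluidics module as a block (0 of all genes passed there, with 1 residual degree of freedom), 0 at a threshold of 0.01 and 1 with the mean of a gene's probe sets. Leaving out 1 array gave 0 to 16. Per probe set the count of 5 became, in the same order, 1, 8, 15, 8, 0, 13, 19, 0 and 0, and 0 to 19 without 1 array. The 5 genes of the wider list became 13 with centring on hybridization controls, 1 without the trend, 11 with array weights, 14 with the round, 0 with the module, 0 at 0.01, 1 with the mean of probe sets, and 0 to 14 without 1 array. Its count of lower genes was 0 to 2 without 1 array. With the replicate number as a block, 12 members, 16 member probe sets and 13 genes of the wider list passed, the 4 members of the first fit among them; the arrays share only a number. The cause of these changes was not tested. No member was called lower under any alternative. Centring on medians or on hybridization controls lowered the median of all genes from −0.05 to −0.16 and −0.22, and the split of all calls from 202 higher and 17 lower to 237 and 46 and to 516 and 221.

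Ifitm2 kept a positive difference in all 19 alternatives for it (2.38 to 3.58) and passed in 14, Bst2, Ifi47 and Ifnar2 in 12 each. Without 1 total cell array the adjusted p of these 4 lay between 0.0958 and 0.231. Signs turned in 7 genes that passed in 0 alternatives. Adar became −0.0031 with median centring, −0.057 with hybridization controls and −0.026 to 0.243 without 1 array. Eif2ak2 became 0.047 with array weights, 0.22 with the module and −0.24 to 0.11 without 1 array. Ifitm1 became −0.040 with quantile normalization, −0.090 with median centring, −0.14 with hybridization controls, −0.038 with array weights, −0.091 with the round, −0.20 with the module and −0.11 to 0.20 without 1 array. Ifngr2 became 0.70 with the probe set of largest t and 0.21 with the mean of probe sets. Mx1 lay between −0.16 and 0.057 without 1 array. Socs1 became −0.0055 with quantile normalization, −0.045 with median centring, −0.099 with hybridization controls, −0.099 with the round and −0.079 to 0.20 without 1 array. Tyk2 became 0.078 with the round and −0.285 to 0.049 without 1 array.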
